A study of Mus musculus with 2 samples.

Results

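The genes described here form the route from cholesterol to oestrogen in the ovary, together with Srd5a1, which draws steroids out of it. They are 2 genes of cholesterol delivery (Scarb1 and Star), 2 electron donors (Fdx1 and Por) and 6 enzymes (Cyp11a1, Hsd3b1, Cyp17a1, Cyp19a1, Hsd17b1 and Srd5a1). They were chosen by name for their place in the pathway by a rule that uses no measured value, though with earlier results of these data known, and make up 10 of the 20658 genes that could be named on the array. The 10 genes were read by 13 of the 55674 probes. The study asked which genes respond to tachykinins (TKs), a family of neuropeptides that includes substance P and neurokinins A and B, in the ovary of the immature mouse. Ovary pieces of 2-week-old mice were cultured for 3 days with either agonists or antagonists of the TK receptors (TKRs) TACR1, TACR2 and TACR3, and total RNA of each group was hybridised to 1 single-colour (Cy3) Agilent array. Per the methods, each ligand was used at 1 μM: the agonists were [Sar9, Met(O2)11]-SP for TACR1, GR-64349 for TACR2 and a substance P fragment analogue for TACR3, and the antagonists were GR-94800 for TACR2, SB218795 for TACR3 and a further compound for TACR1. Per the methods, ovaries were cut lengthwise into symmetrical pieces to limit differences between ovaries. The paper describes ovaries treated with all the TKR antagonists, while its array methods join the listed ligands with 'or'. Whether the agonists were likewise given together is not stated for the array. Neither the mouse strain nor the number of ovaries behind each RNA is given for the arrays in the sources used here. The same holds for whether both arrays drew on pieces of the same ovaries. No allele or transgene is named, and an array of untreated ovary was not analysed here. Neither group has a replicate array, and the values carry no test: each compares these 2 RNA samples, in which treatment, array and any remaining difference between the pieces cannot be told apart.

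Steroid synthesis begins when cholesterol is taken into the cell and moved to the inner membrane of the mitochondrion, where the side chain is cleaved to give pregnenolone. In the follicle the work is divided. Theca and interstitial cells make androgens from pregnenolone under luteinising hormone, and granulosa cells convert those androgens to oestrogens under follicle-stimulating hormone.

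Every one of the chosen genes was measured on both arrays, and they did not share 1 direction. Cyp11a1, the side chain cleavage enzyme, had the highest ratio, 1.73-fold above TKR antagonists after scaling (log2 ratio 0.79 ± 0.20, the error being that of the scanner software). Cyp19a1 and Hsd3b1 followed at 1.29-fold and 1.15-fold. The other 7 genes had log2 ratios (agonists minus antagonists) from -0.06 for Scarb1 to -0.47 for Hsd17b1. No member was 2-fold higher or lower with the agonists, against 612 (4.01%) and 88 (0.577%) of the 15258 named genes measured on both arrays.

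Signals are given as the scanner software's processed signal, in arbitrary units, and log2 ratios after each array was scaled on the 75th percentile of its spots other than controls (672 with the agonists and 569 with the antagonists). The software judged 65.4% and 61.6% of the spots to be well above background on the agonist and antagonist array, and no spot was saturated. All 13 member probes were well above background on both arrays, each from 1 spot, and the dimmest of them, the lesser Star probe, was 5.68 times the lowest signal well above background on its array. The error given with a log2 ratio is the software's error of the spots, which lay between 0.20 and 0.22 for the members. It covers the reading of the spot and not the difference between ovaries. On each array it was close to a fixed share of the signal. It therefore hardly differs between members, and a count of values past it is a count past a nearly fixed step. Among 284 probes printed 10 times, the spots of a probe had log2 ratios with a median SD of 0.07. The 15258 genes had a median log2 ratio of -0.10 (SD 0.48 across genes), so the members are also given as their distance from that median, which no constant scaling of an array can move.

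**Figure D1:**
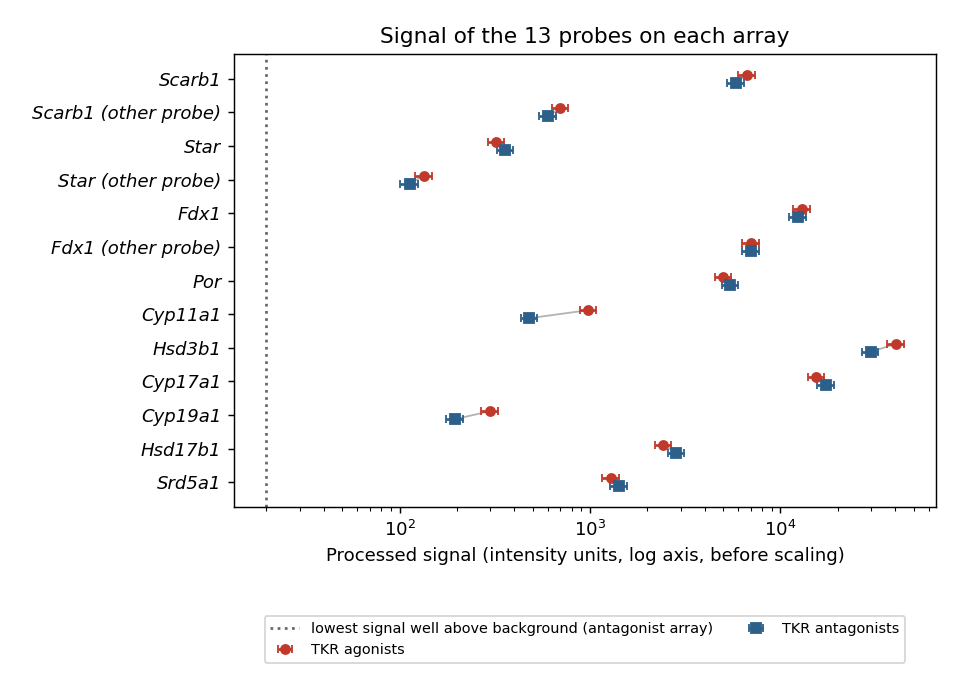
Processed signal (log scale, arbitrary units) of the 13 probes of the 10 genes, 1 point per array; bars are the software's error of the spot, and the dotted line is the lowest signal well above background on the antagonist array. All points lie to the right of that line, with the widest gap between arrays at Cyp11a1 (981 with TKR agonists and 480.2 with TKR antagonists), and signals of different probes are not to be ranked against each other.

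Scarb1 encodes the receptor that takes up cholesteryl ester from high-density lipoprotein. Its probe read 6654 under the agonists and 5854 under the antagonists, for a log2 ratio of -0.06 ± 0.20 after scaling and 0.04 above the median of all genes. A dimmer Scarb1 probe read 699 and 600.3, with a log2 ratio of -0.02 ± 0.20. Both Scarb1 probes lay within their error of 0.

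Star encodes the protein that moves cholesterol to the inner mitochondrial membrane, the rate-limiting step of acute steroid production. Its brighter probe read 323 under the agonists and 359 under the antagonists, for a log2 ratio of -0.40 ± 0.21. The dimmer Star probe read 135 and 113, with a log2 ratio of 0.01 ± 0.22. The 2 Star probes were 0.41 apart on the log2 scale, more than their combined error of 0.30, and the value of Star rests on which of them is read: its distance from the median of all genes was -0.30 by the brighter probe, 0.11 by the dimmer one and -0.10 by the mean of both, so its side of that median turns with the probe. The sequences of the array probes are not in the files used here.

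Fdx1 encodes ferredoxin, which carries electrons to the mitochondrial cytochromes P450 such as Cyp11a1, and Por encodes the reductase that serves the microsomal ones, Cyp17a1 and Cyp19a1. The Fdx1 signal was 12968 under the agonists and 12344 under the antagonists, for a log2 ratio of -0.17 ± 0.20. A further Fdx1 probe at 7001 and 6998 gave -0.24 ± 0.20, which differs from the first by less than their combined error of 0.29. Por read 5007 and 5448, with a log2 ratio of -0.36 ± 0.20. Neither electron donor lay above the median of all genes: Por was -0.27 from it, past its error, and Fdx1 -0.07, within it.

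Cyp11a1 cleaves the side chain of cholesterol to give pregnenolone, the first enzymatic step of the route. Its probe read 981 ± 98.2 with TKR agonists and 480.2 ± 48.2 with TKR antagonists, the errors being those of the software. After scaling, the log2 ratio was 0.79 ± 0.20, or 0.88 above the median of all genes. Of the 15258 genes, 931 (6.10%) had a log2 ratio at least as high as Cyp11a1. It was also the sole member at least 1.5-fold higher, as were 9.26% of all genes; none of the members was 1.5-fold lower, against 4.28% of all genes.

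Hsd3b1 encodes the 3β-hydroxysteroid dehydrogenase that turns pregnenolone into progesterone. Its signal was 40513 under the agonists and 29721 under the antagonists, for a log2 ratio of 0.21 ± 0.20, with 21.5% of genes at or above it and a distance of 0.30 from their median. The close relative Hsd3b6, named here for that likeness, read 994 and 700.2 with a log2 ratio of 0.26 ± 0.20. Whether the probes tell these paralogs apart was not tested.

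Cyp17a1, the 17α-hydroxylase and 17,20-lyase of theca and interstitial cells, makes androgen precursors. It read 15415 under the agonists and 17266 under the antagonists, for a log2 ratio of -0.41 ± 0.20. Thus the enzyme next along the route from Cyp11a1 and Hsd3b1 lay on the opposite side of 0 and, at a distance of -0.31, of the median of all genes. The difference between the log2 ratios of Cyp11a1 and Cyp17a1 was 1.19 ± 0.29, or 2.29-fold.

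Cyp19a1 encodes aromatase, which converts androgens to oestrogens in granulosa cells. It read 299.7 under the agonists and 197 under the antagonists, for a log2 ratio of 0.37 ± 0.21, with 14.6% of genes at or above it and a distance of 0.46 from their median. Hsd17b1, the granulosa enzyme that converts oestrone to oestradiol, read 2429.7 and 2841, a log2 ratio of -0.47 ± 0.20. The log2 ratios of the 2 granulosa enzymes differed by 0.83 ± 0.29 (1.78-fold). Under normexp, another background correction, Cyp19a1 was at 0.14, within its error of 0, and the difference was 0.52 (1.43-fold). Hsd17b1 was the lowest of the members, with 7.89% of genes at or below it and a distance of -0.37 from their median. Srd5a1, the 5α-reductase that draws androgens and progestins out of the route to oestrogen, read 1288 under the agonists and 1414 under the antagonists, for a log2 ratio of -0.38 ± 0.20 and a distance of -0.28.

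**Figure D2:**
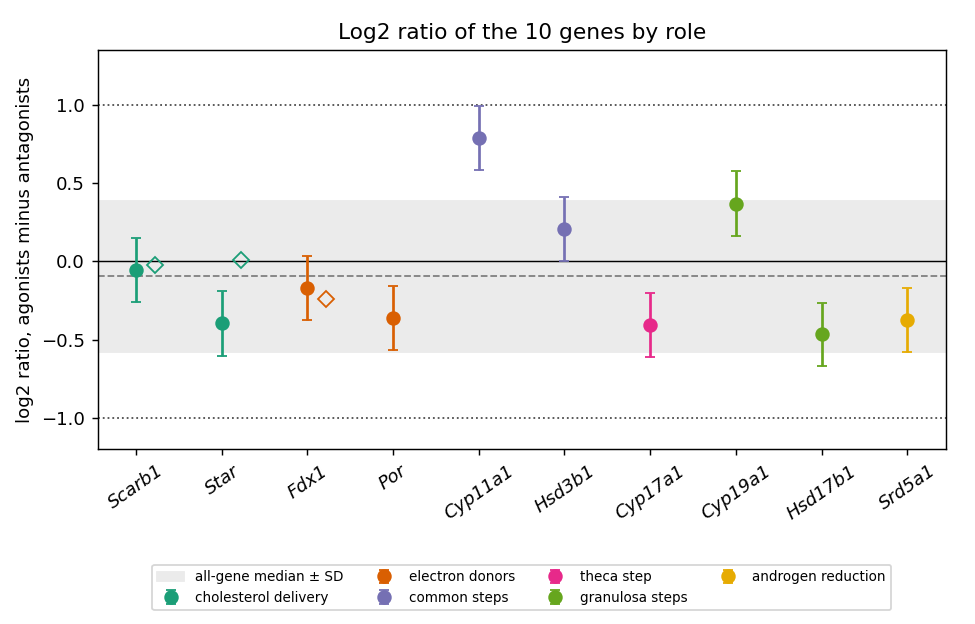
Log2 ratio (TKR agonists minus TKR antagonists, scaled on the 75th percentile) of every probe of the 10 genes, filled points with the software's error as bars for the representing probe and open diamonds for a gene's other probe; the dashed line and grey band are the median of all genes (-0.10) and the SD across genes (0.48), and dotted lines mark a fold of 2. Cyp11a1 (0.79), Cyp19a1 (0.37) and Hsd3b1 (0.21) lie above 0, the other 7 genes below it by their representing probe, and the 2 Star probes do not coincide.

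In descending order of the log2 ratio the genes were Cyp11a1, Cyp19a1, Hsd3b1, Scarb1, Fdx1, Por, Srd5a1, Star, Cyp17a1 and Hsd17b1. Of the 9 neighbours in that order, 1 pair differed by more than its combined software error: Cyp11a1 over Cyp19a1, by 0.42 ± 0.29. Srd5a1, Star and Cyp17a1 followed each other at steps of 0.02 and 0.01 and could not be ordered. Of all 45 pairs, 28 differed by more than their combined error and 17 by more than 2 such errors. The share of pairs among all genes that differed so far was not counted, so these counts show no trait of the members. Cyp11a1 was in 8 of the 17, against every member except Cyp19a1, and the remaining pairs set Cyp19a1 or Hsd3b1 above genes at the lower end. Against the median of all genes, 4 members lay above (Cyp11a1, Cyp19a1, Hsd3b1 and Scarb1) and 6 below, and the median over the 10 was -0.27, which is -0.17 from that of all genes. Against the median of all genes, 8 of the 10 were further away than their software error, and 2 by more than 2 errors. The share of all genes that lay so far away was not counted, and the SD across genes (0.48) is wider than these errors. Star is among the 8 by its brighter probe. By its dimmer probe it lay 0.11 from that median, within its error of 0.22.

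**Figure D3:**
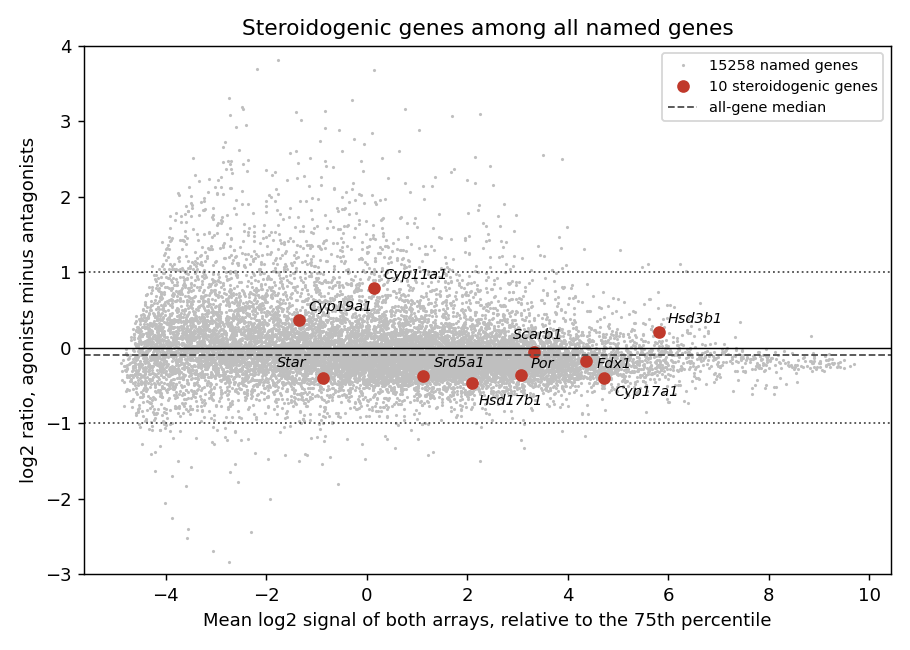
Log2 ratio (TKR agonists minus TKR antagonists) of the 15258 named genes against their mean log2 signal, relative to the 75th percentile, with the 10 members marked. Cyp11a1 lies in the upper part of the cloud and the other members within its body, and none reaches the lines at a fold of 2.

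The route can also be divided by the cell that is known for each step. The 5 genes of theca and interstitial cells (Scarb1, Star, Cyp11a1, Hsd3b1 and Cyp17a1) had a mean log2 ratio of 0.03, from -0.41 to 0.79. The 2 genes of granulosa cells (Cyp19a1 and Hsd17b1) had a mean of -0.05. The groups differed by 0.08 ± 0.17, within the software error, and the spread inside each was wider than the gap between them. Cyp17a1, the gene most particular to theca among the members, differed from the mean of the granulosa genes by -0.36 ± 0.25. With quantile normalization that difference was -0.23, within the error. The mean joins unlike values: Cyp17a1 lay 0.06 ± 0.29 above Hsd17b1, and Cyp19a1 lay 0.77 ± 0.29 above Cyp17a1.

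RefSeq promoter sequences (GRCm38.p6, from 250 bases before to 50 after a start) were at hand for 6 of the 10 genes, as 9 windows. They were searched on both strands for the nuclear receptor core motif AGGTCA, which steroidogenic factor 1 and its relatives are known to bind, for the cyclic AMP response element TGACGTCA, and for the TATA box TATAAA. No motif contains another, TGACGTCA is its own reverse complement, and TATAAA can overlap its own reverse complement. Shown are the windows with a match of Cyp11a1 and Cyp19a1, the members with the highest log2 ratios; capitals mark the matches.
Cyp11a1, chr9:58014702-58015001, plus strand: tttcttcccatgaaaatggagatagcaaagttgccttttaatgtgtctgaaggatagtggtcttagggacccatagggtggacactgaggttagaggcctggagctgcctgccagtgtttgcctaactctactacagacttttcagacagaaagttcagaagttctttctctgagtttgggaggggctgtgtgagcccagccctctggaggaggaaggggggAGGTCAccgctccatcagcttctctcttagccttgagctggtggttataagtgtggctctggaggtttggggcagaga
Cyp19a1, chr9:54268115-54268414, minus strand: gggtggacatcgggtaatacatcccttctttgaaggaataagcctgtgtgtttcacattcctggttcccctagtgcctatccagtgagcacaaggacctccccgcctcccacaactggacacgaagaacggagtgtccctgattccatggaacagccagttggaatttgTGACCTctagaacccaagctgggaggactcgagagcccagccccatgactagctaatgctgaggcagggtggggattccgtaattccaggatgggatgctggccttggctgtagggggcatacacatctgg
Cyp19a1, chr9:54228865-54229164, minus strand: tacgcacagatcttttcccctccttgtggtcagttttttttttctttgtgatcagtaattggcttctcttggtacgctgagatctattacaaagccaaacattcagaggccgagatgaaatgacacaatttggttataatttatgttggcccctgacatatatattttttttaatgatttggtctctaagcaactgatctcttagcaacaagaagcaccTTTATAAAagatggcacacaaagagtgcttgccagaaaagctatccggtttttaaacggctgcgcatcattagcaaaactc
Cyp19a1, chr9:54193694-54193993, minus strand: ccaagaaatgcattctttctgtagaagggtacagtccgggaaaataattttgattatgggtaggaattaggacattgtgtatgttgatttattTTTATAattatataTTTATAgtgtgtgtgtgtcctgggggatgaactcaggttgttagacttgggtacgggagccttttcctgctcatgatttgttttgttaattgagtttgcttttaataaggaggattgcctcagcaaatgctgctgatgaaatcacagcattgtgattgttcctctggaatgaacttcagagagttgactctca
The match in Cyp11a1 is AGGTCA itself, 28 to 23 bases before the start; the first Cyp19a1 window holds its reverse complement, 81 to 76 bases before the start. AGGTCA is in 16.3% of all 32851 windows in either direction and in 2 of the 9 member windows. The other Cyp19a1 windows hold TATAAA, present in 13.6% of all windows: one 29 to 24 bases before the start, overlapped by its reverse complement from 31 to 26, and one with the reverse complement from 157 to 152 and again from 143 to 138. TGACGTCA, present in 1.79% of all windows, was in 0 of the 9. The remaining Cyp11a1 window and those of Hsd3b1, Por, Fdx1 and Srd5a1 held no match. The arrays do not show which start was used.

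Beyond the 10 genes, 14 of 18 other steroid enzymes were measured on both arrays. Their median log2 ratio was 0.06, 10 of the 14 lay above the median of all genes, and 1 was 2-fold higher: Akr1c18, the enzyme that inactivates progesterone, at 72.7 with the agonists and 30.0 with the antagonists (log2 ratio 1.04 ± 0.31). That ratio is within its error of the limit of 2-fold, which 4.01% of all genes passed, and none of the list passed it with scaling on the median, quantile normalization or normexp. None was 2-fold lower, and the lowest was the cytochrome b5 gene Cyb5b at -0.28. Fdxr, the reductase that hands electrons to Fdx1 and is named for that role, was at 0.15 ± 0.20. Hsd17b3, Srd5a2 and Sult1e1 were not well above background on either array, and no probe was named Sts.

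All 15 genes of cholesterol handling were measured, with a median of 0.05, 12 of the 15 above the median of all genes, and none past 2-fold in either direction. The highest was Tspo, a protein of the outer mitochondrial membrane, at 3165 with the agonists and 1441 with the antagonists (log2 ratio 0.89 ± 0.20).

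The 9 transcription factors known to act on steroidogenic genes had a median of -0.12, and 4 of the 9 lay above the median of all genes. None was past 2-fold. Nr0b1 (DAX1), a repressor of steroidogenic factor 1, was the highest at 0.52, with an SD of 0.09 over 9 spots. Nr5a2, which encodes liver receptor homologue 1, was the lowest at -0.47 ± 0.20, and Nr5a1, the gene of steroidogenic factor 1 and named for that role, was at -0.29 ± 0.20.

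**Figure D4:**
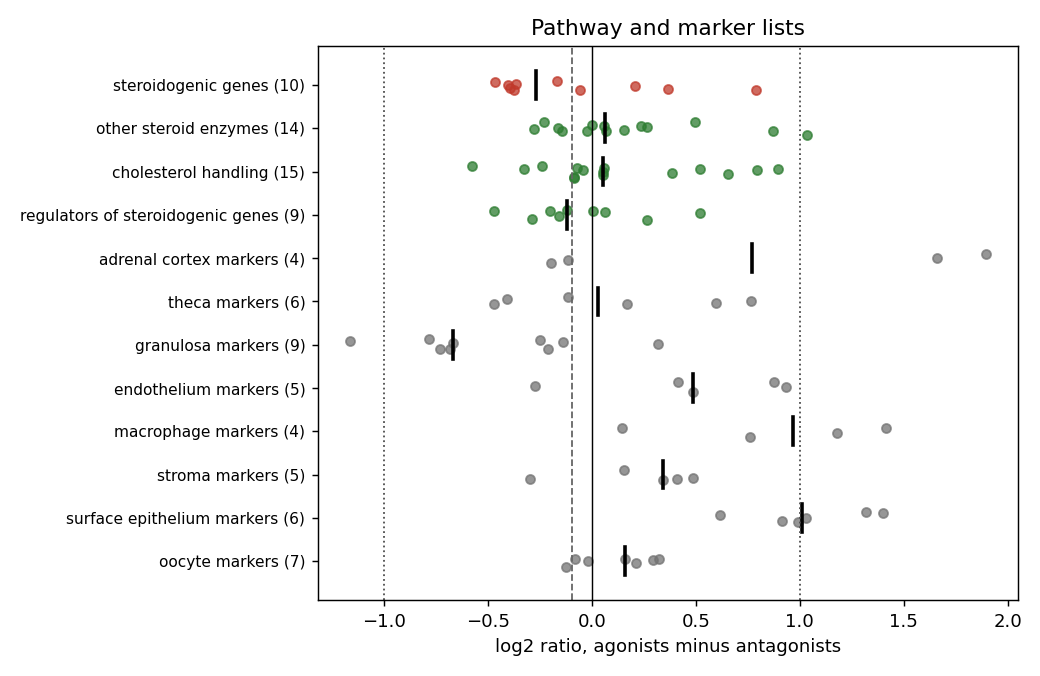
Log2 ratios (TKR agonists minus TKR antagonists) of the genes measured on both arrays in each list, 1 point per gene, with a bar at the list's median; the dashed line is the median of all genes and dotted lines mark a fold of 2. The members have a median of -0.27, other steroid enzymes 0.06, cholesterol handling 0.05 and regulators -0.12, while the granulosa markers lie lower at -0.67 and the surface epithelium markers higher at 1.01.

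The RNA came from whole pieces of ovary, in which fewer cells of a type and less RNA per cell cannot be told apart. All 9 granulosa and all 7 oocyte markers were well above background on both arrays, as were 15258 of the 20658 named genes. This count is therefore no test of the tissue label. Granulosa markers had a median of -0.67, with 8 of the 9 below 0. Their signals summed to 596027 under agonists and 602367 under antagonists, of which 86.7% and 84.1% came from the probe of Kctd14 (log2 ratio -0.21), and without it 79108 and 95818. These sums are before scaling. After scaling, the log2 ratio of the sums with Kctd14 was -0.26. Inhbb, an inhibin subunit, was lowest at -1.17, and Foxl2, a granulosa transcription factor, was highest at 0.32. A dimmer Foxl2 probe gave -0.37 ± 0.22, on the other side of 0. Dimmer Kctd14 probes gave 0.30 ± 0.21 and -0.07 ± 0.20. The granulosa members lay at 0.37 for Cyp19a1 and -0.47 for Hsd17b1, and the part of granulosa RNA in them was not tested.

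Of the theca markers, 6 of 8 were measured, with a median of 0.03, a range from -0.47 (Hhip) to 0.77 (Tcf21), and summed signals of 16908 and 12313. After scaling, the log2 ratio of those sums was 0.22. Lhcgr, the receptor for luteinising hormone and a defining theca marker, was not well above background on either array, and no probe was named Insl3. Cyp17a1, Star and Cyp11a1 were well above background on both arrays all the same.

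Adrenal cortex shares Star, Cyp11a1 and Hsd3b genes with the ovary. Its markers had a median of 0.77 over the 4 measured on both arrays, or 0.46 with Mc2r at its bound. Their summed signals were 6772 and 2227 before scaling, with a log2 ratio of 1.36 after it. The adrenal 11β-hydroxylase gene Cyp11b1 read 116 with the agonists and 26.5 with the antagonists (log2 ratio 1.89 ± 0.33). The second value is near the lowest signal well above background on that array, 19.9. Mrap, the partner of the corticotropin receptor, read 5969 and 1597 (log2 ratio 1.66 ± 0.20), and its probe made up 88.1% and 71.7% of the summed signals. Mc2r, that receptor itself, was well above background on the agonist array alone, at least 1.38-fold higher there. Cyp21a1 and Akr1b7 were at -0.12 and -0.20, and Cyp11b2 was not well above background on either array. Under normexp the median of the adrenal cortex markers was 0.26. Whether adrenal cortex cells were present, and any part of them in the value of Cyp11a1, was not tested.

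The medians of the markers of other cells of the ovary lay above 0. All 6 surface epithelium markers were above 0, with a median of 1.01 and summed signals of 24381 with the agonists and 9681 with the antagonists. Of 6 macrophage markers, 4 were measured on both arrays and above 0, with a median of 0.97 and summed signals of 7637 and 5118; Cd163 was not well above background on either array, and no probe was named Cd68. Endothelium markers (5 of 6 measured on both arrays, 4 of them above 0) had a median of 0.48 and summed signals of 40749 and 30846; Tek was well above background on the agonist array alone, at least 4.10-fold higher there, and with it at that bound the median was 0.68. Stroma markers (5 of 5 measured, 4 above 0) had a median of 0.34 and summed signals of 264233 and 187761. Oocyte markers (7 of 7 measured, 4 above 0 and 3 below) had a median of 0.16 and summed signals of 144698 and 126693. These sums are before scaling. After scaling, their log2 ratios were 1.09 for surface epithelium, 0.34 for macrophages, 0.25 for stroma, 0.16 for endothelium and -0.05 for oocyte markers. The part of these cells in the values of the steroidogenic genes was not tested.

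Other ways of processing changed the sign of some members. Under the main and 11 other settings, members kept their side of the median of all genes: Cyp11a1, Cyp19a1, Hsd3b1 and Scarb1 above, the other 6 below. Most of these settings could not change a side. Constant scalings and the value table shift all genes alike, and the settings for spots cannot move members read from 1 spot. Only quantile normalization, loess, normexp and the mean over probes could change a side. None of the 12 settings read Star by its dimmer probe alone, which puts Star above. Cyp11a1 lay between 0.85 and 0.88 above that median, and Cyp19a1 between 0.24 and 0.46. Against 0, Scarb1 was above in 6 of 12 settings and Fdx1 in 2 of 12, and Cyp11a1 passed 2-fold with no scaling (1.03) and on the spike-in controls (1.04). Of all genes, 6.50% were 2-fold higher with no scaling and 6.54% on the spike-in controls.

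**Figure D5:**
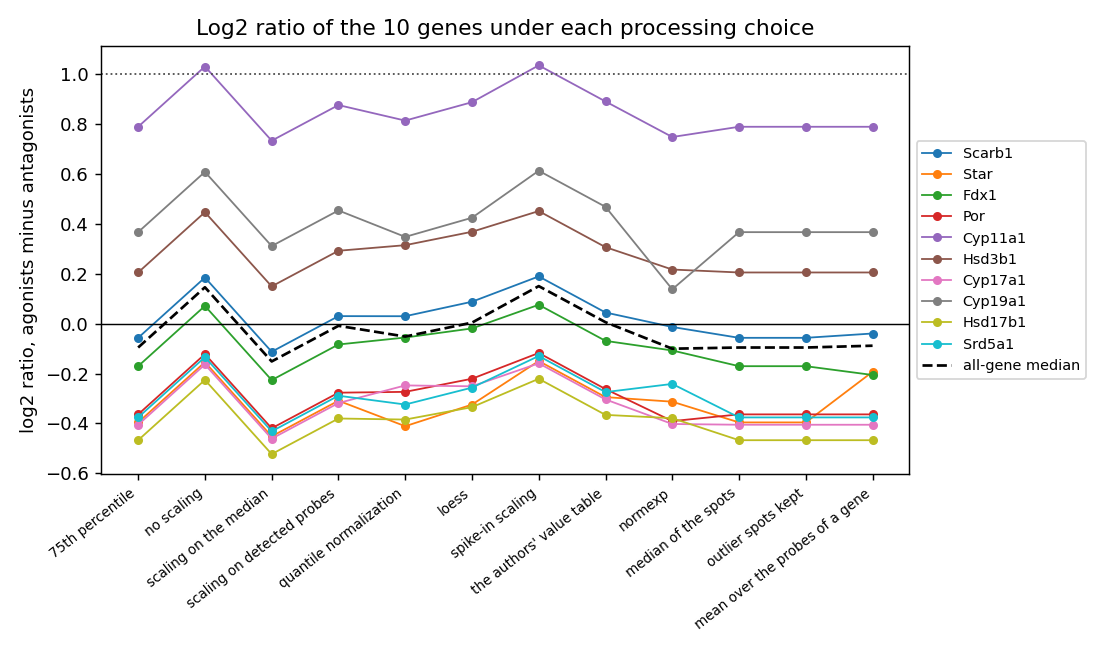
Log2 ratio (TKR agonists minus TKR antagonists) of the 10 genes under the 12 settings, 1 line per gene, with the median of all genes under each as a dashed line and a fold of 2 dotted. The lines rise together where the arrays were left unscaled or scaled on the spike-in controls, and Cyp11a1 stays highest in all 12.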

How the data were processed

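Total RNA from 2-week mouse ovary pieces, cultured for 3 days, was labelled with Cy3 and hybridised to 1 SurePrint G3 Mouse GE array per group. The authors deposited the scanner output of Agilent Feature Extraction 10.10.1.1, whose processed signal is a background-subtracted intensity per spot, and a value table of intensities. In that table, each array is the deposited processed signal times a constant (1.99 with the agonists and 2.19 with the antagonists); how that constant was set was not settled. The array design is on mm9, and no coordinates were taken from it.

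Here, control spots were left out, and log2 of the processed intensity minus the 75th percentile of all other spots of each array was taken. Spots marked as outliers were then left out, and spots were averaged per probe. The log2 ratio is agonists minus antagonists. A probe was taken to be above background if the software passed a share over 0.5 of its spots, and the probe with the highest mean signal represented a gene. Genes were named by matching RefSeq accessions to a table of GRCm38.p6, which named 20658 genes. A call was a fold of 2, with no test, and the errors come from the software's spot errors. A probe above background on 1 array has a lower bound of its fold, set against the higher of its own signal and the lowest signal well above background on the other array.

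The members and lists were chosen with earlier results of these data known. Named were all members, the genes past 2-fold and the highest and lowest of the pathway lists, and the gene with the highest signal and the range of the marker lists; other genes were named for their role after their values were seen. Not every gene that this rule names is reported here. Python 3.11.15, pandas 2.3.3, numpy 2.4.6, statsmodels 0.14.6 (loess, span 0.3), R 4.3.3 and limma 3.58.1 (normexp, offset 50, on the median signal and background of the spots) were used, and the ratio was tested on simulated data. Alternatives were other scalings (none, the median, detected probes, quantile, loess, spike-in controls), the value table, normexp, the summary of spots and probes, and other folds and filters. The 1 array per group limits the precision.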

Additional observations from a re-analysis of the deposited data

How the results depend on the processing

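Of 288 values under the alternatives, 246 stayed within the software error or, for counts, within 1.5 times the first value, and 42 moved further. Many of the 246 could not move, so their number is no measure of robustness. The settings for spots and for other probes leave genes with 1 spot and 1 probe as they were. A constant scaling leaves a difference between log2 ratios unchanged. Of the 190 values that are not counts, 13 lay on the other side of 0. They include Scarb1, Fdx1, Star and the medians of cholesterol handling and regulators, and none of the 13 was past 2-fold. Read by their other probe, an alternative chosen after seeing the data, Star was at 0.010 and neither Scarb1 nor Fdx1 changed sign. With no scaling, the median of all genes was 0.15 and the log2 ratios were 0.18 for Scarb1, -0.15 for Star, 0.071 for Fdx1, -0.12 for Por, 1.03 for Cyp11a1, 0.45 for Hsd3b1, -0.16 for Cyp17a1, 0.61 for Cyp19a1, -0.23 for Hsd17b1 and -0.13 for Srd5a1, with a median over the members of -0.025. With spike-in scaling, the median of all genes was also 0.15, and the log2 ratios were 0.19 for Scarb1, -0.15 for Star, 0.076 for Fdx1, -0.12 for Por, 1.04 for Cyp11a1, 0.45 for Hsd3b1, -0.16 for Cyp17a1, 0.61 for Cyp19a1, -0.22 for Hsd17b1 and -0.13 for Srd5a1, with a median of -0.021. These settings shift every gene by a constant. Under each of them, 1 member was 2-fold higher, against 0 with the 75th percentile, where 1 passed a fold of 1.5. The share of all genes 2-fold higher was 6.50% unscaled and 6.54% with spike-in scaling, against 4.01% with the 75th percentile.

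The medians of other steroid enzymes, cholesterol handling and regulators were 0.30, 0.29 and 0.12 unscaled, and 0.31, 0.30 and 0.13 with spike-in scaling. Other steroid enzymes 2-fold higher numbered 2 with no scaling, spike-in scaling and loess and 0 with scaling on the median, quantile normalization and normexp; those of cholesterol handling numbered 2 unscaled or on the spike-in controls and 1 with loess. Normexp gave 0.14 for Cyp19a1; the cause was not tested. Among all genes, 992 were 2-fold higher and 39 lower on unscaled arrays, 998 and 38 on arrays scaled by their spike-in controls, 322 and 33 after normexp, and 58 were lower in the value table. No paired analysis was possible because a group holds 1 array, which leaves nothing to pair or test. For the same reason no array could be left out. Signal over background was lowest for the dimmer Star probe and Cyp19a1, at 5.68 and 9.88 times the lowest signal well above background on the antagonist array.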
